A study of Gallus gallus with 65 samples.

Results

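The HOX probes of a transcription factor array were examined in the chick utricle, which senses gravity and linear motion, after the antibiotic neomycin had been used to kill hair cells of its sensory epithelium. A probe was taken as a member when its gene name in the array files starts with HOX. This gave 40 of 1507 gene probes, of which 11 belong to cluster A, 9 to cluster B, 9 to cluster C and 9 to cluster D. The other 2, HOX11 and HOX11L, carry older names of TLX genes that lie outside the clusters, and they are given apart. HOXB4 was not analysed here.

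Per the study's methods, utricles of young White Leghorn chicks were cultured with neomycin sulfate or, as time-matched controls, in the same medium without it. Utricles taken at the end of the drug treatment form the 0 hr group, and others recovered in fresh medium for 24 or 48 hr. The epithelium, made of hair cells with supporting cells, was then freed from the stroma, and several epithelia were pooled into each biological sample, so a replicate is a pool and not 1 epithelium. Each array compared neomycin-treated with control RNA in 2 dyes, and 9 biological replicates were available, 3 at each of the 3 time points, over 65 arrays.

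HOX genes encode homeodomain transcription factors that lie in clusters on different chromosomes. Within a cluster their order along the chromosome matches the order in which they act along the head to tail axis, low numbers towards the head and high numbers towards the tail. Genes with the same number in different clusters are paralogues, descended from a shared ancestor. The inner ear forms beside the hindbrain, where low-numbered HOX genes pattern the segments.

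The values are log2 ratios of neomycin over control, averaged over both dye orientations, 1 value per replicate. A positive value means a higher signal in neomycin-treated epithelia by the dyes that the file headers name. The sign was taken from those headers. On 65 of 65 arrays the title digit named the same dye, and the deposited log2 ratios had the same direction. What the digit stands for was read from the headers. In such bulk RNA, fewer cells of a type and less RNA per cell cannot be told apart. Signals were weak, the median gene spot lying 1.96-fold over background in Cy3 and 1.69-fold in Cy5. The median brightness of single arrays ran from 121.5 to 2246. The brightness pattern of 4 arrays differed from the rest (Pearson r with the others under 0.5), 3 of them at 0 hr and 1 at 48 hr. That of 48 hr, from replicate 3 with neomycin in Cy5, had a misplaced spot grid. It correlated with the median spot pattern at 0.16 as deposited and at 0.64 with its grid moved by 1 row. The main fit kept it as deposited, so the values of 48 hr replicate 3 include it. Without these 4 arrays no HOX probe was called, and the 3 at 0 hr and the 1 at 24 hr past 1.2-fold (both lists are given with the tests) were the same probes. Replicates of 1 time point shared little of their ratio pattern, with a median correlation of 0.02 across probes, which are not independent replicates. At 0 hr replicates 1 and 3 correlated at 0.44, while replicate 2 stood apart from them, at -0.09 with replicate 1 and -0.17 with replicate 3 (results without it are given where they differ).

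Most HOX probes were dim. Brightness here is the geometric mean of the raw Cy3 and Cy5 signal of the spot, as the median over 65 arrays, and it depends on how well a human 50-base probe matches the chick transcript as well as on the transcript's amount. It was 651.0 at the median HOX probe against 634.8 over all gene probes. The probes at 1000 or more were HOXA6, HOXD8, HOXB9, HOXA13, HOXA7 and HOXD12, which is 6 of 40 HOX probes beside 17% of all gene probes. The median member lay 2.05-fold over background in Cy3 and 1.85-fold in Cy5. Duplicate spots of a HOX probe differed by a median of 0.12 on the log2 ratio scale.

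Cluster A held the brightest members and cluster C the dimmest. In cluster A brightness reached 3639 at HOXA6, with a median of 874.9, and 9 of 11 members were above the median of all probes. Cluster B ran from 530.5 at HOXB5 to 1727 at HOXB9, with a median of 731.0. Cluster C ran from 421.9 at HOXC9 to 957.9 at HOXC5, with a median of 587.7, and 3 of its 9 members were above the median of all probes. Cluster D ran from 574.2 at HOXD11 to 2221 at HOXD8, with a median of 649.7. HOXC9, HOXC11 and HOXC12 fell below the limit for testing, so no ratio test was made of them and 37 of 40 members were tested.

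By paralogue number, every member of groups 2, 8 and 13 was brighter than the median of all probes. Group 2 comprised HOXA2 at 654.0 and HOXB2 at 731.0, group 8 comprised HOXB8 at 954.0, HOXC8 at 705.7 and HOXD8 at 2221, and group 13 comprised HOXA13 at 1613, HOXB13 at 732.4, HOXC13 at 783.6 and HOXD13 at 800.7. Groups 1 to 4 had no member at 1000 or more, and their 11 members had a median of 649.7. Groups 5 to 8 had a median of 954.0 over 11 members, and groups 9 to 13 one of 645.8 over 16 members. These are levels of spots and give no order of transcripts.

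**Figure D1:**
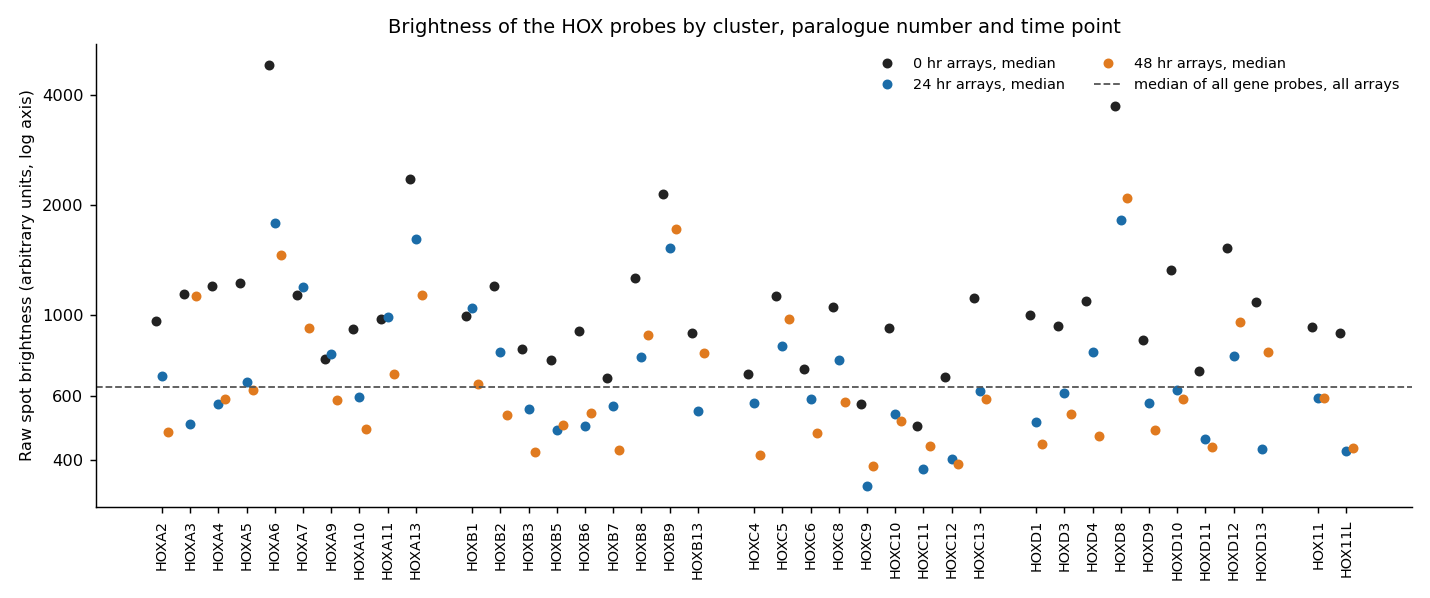
Raw brightness of 39 of the 40 HOX probes (vertical log axis, arbitrary units), as the median over the arrays of 0, 24 and 48 hr, ordered by cluster and paralogue number. The dashed line is the median of all gene probes at 634.8, over the arrays of all time points together. Arrays differed in brightness and the values are not normalized, so heights cannot be compared between time points. HOXA6, HOXA13, HOXB9 and HOXD8 stand above the other members, and cluster C lies lowest.

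A probe was scored as detected at a time point where, in every replicate, 50% or more of the arrays had a background-corrected signal above 1000. These signals were not normalized between arrays. The arrays of 24 hr replicate 1 were dim, with median brightness from 121.5 to 399.2, so the counts cannot be compared between time points. At 0 hr HOXA6, HOXA13 and HOXD8 were detected, 3 of 40 beside 7.56% of all gene probes. At 24 hr 0 of 40 were detected, beside 2.85%. At 48 hr HOXB9 and HOXD8 were detected, 2 of 40 beside 4.91%. The members scored as detected at 1 or more time points were therefore 4 of 40 beside 8.29%, with 2 of them (HOXA6 and HOXA13) in cluster A, and none was detected throughout. Leaving out 24 hr replicate 1 raised the count at 24 hr to 4, and leaving out 0 hr replicate 2 raised that at 0 hr to 6. The shares of all gene probes without these replicates are not given here.

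The main question was whether HOX genes differ between neomycin-treated and control epithelia. No HOX probe passed the test at any time point. With limma and Benjamini-Hochberg adjustment over 1281 probes, 0 of 37 tested HOX probes had an adjusted p under 0.05 at 0 hr, at 24 hr and at 48 hr, beside 0% of all probes tested at each. In the mean over time points it was 0 of 37 beside 0.39%. Before adjustment, 3 of 37 had a p under 0.05 at 0 hr (6.4% of all probes), 3 at 24 hr (5.93%), 1 at 48 hr (7.42%) and 8 in the mean over time points (12.2%). Of these, 2 were higher with neomycin at 0 hr (3.83% of all probes), 1 at 24 hr (2.97%), 1 at 48 hr (5.07%) and 7 in the mean (7.96%). Past 1.2-fold with that p were 3 at 0 hr (HOXA4, HOXA13 and HOXD8, beside 3.12% of all probes), 1 at 24 hr (HOXA4, beside 2.73%), 0 at 48 hr (beside 2.89%) and 1 in the mean (HOXA4, beside 1.56%).

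HOX ratios were small. The median over the 37 tested members was 0.04, 0.06 and 0.05 at 0, 24 and 48 hr, against -0.01, 0.00 and 0.01 over all tested probes. Above 0 were 26 of 37 members at 0 hr (48.2% of all probes), 25 at 24 hr (52%) and 23 at 48 hr (52.8%). The 3 replicates had the same sign for 15 of 37 members at 0 hr (27.7% of all probes), 20 at 24 hr (29.3%) and 7 at 48 hr (28.5%). In 8 or 9 of the 9 replicates 7 members were above 0, beside 7.34% (HOXA2, HOXA4, HOXB8, HOXC4, HOXC5, HOXC13 and HOXD4), and 0 were below 0 in all 9, beside 0.39%. The standard error of a member's ratio was 0.09 at the median for a time point and 0.05 for the mean over time points. In that mean, the 95% interval lay inside 1.2-fold in both directions for 33 of 37 members, and at 0, 24 and 48 hr for 20, 17 and 16 members. The share of all probes is not given here. These intervals bound ratios of spots and not of transcripts. The study proposes that hybridization across species may narrow the range of ratios. In its earlier experience with this array, changes as low as 1.2-fold were often larger by quantitative PCR.

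**Figure D2:**
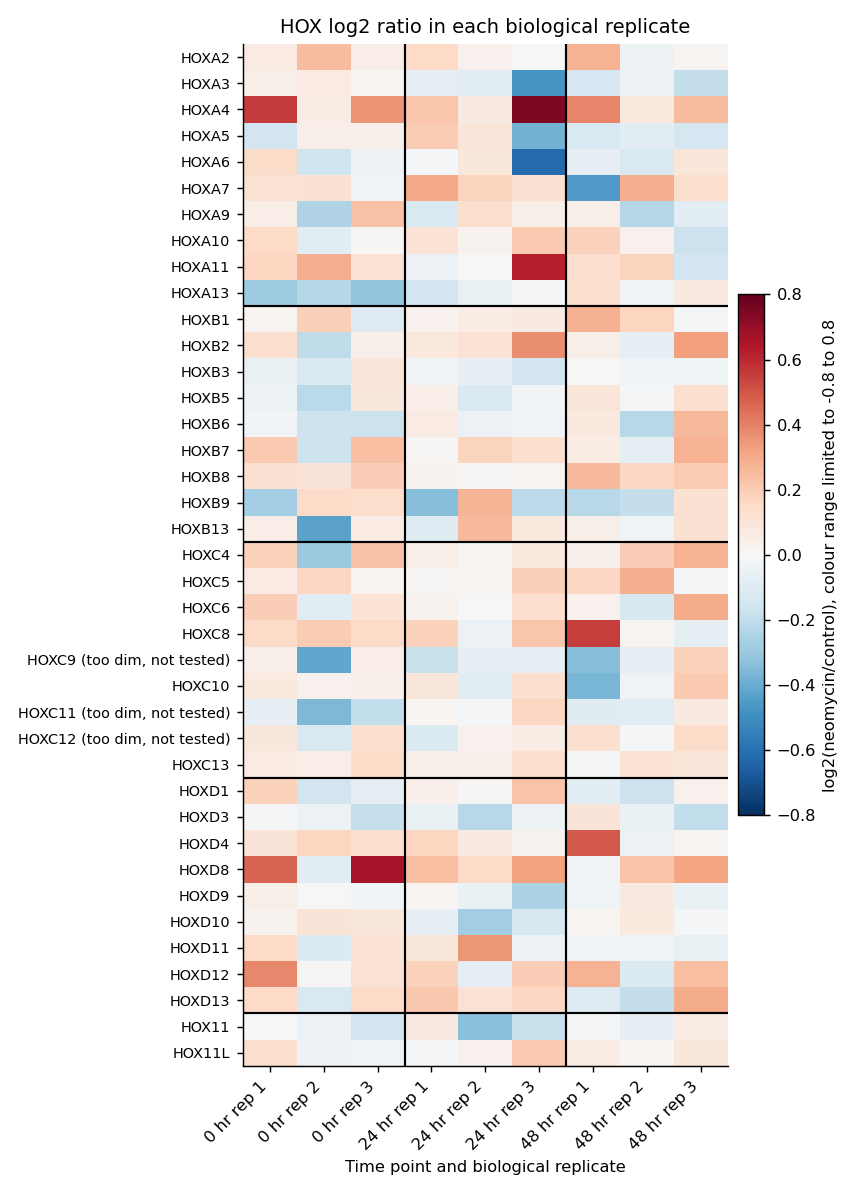
Log2 ratio of neomycin over control for 39 of the 40 HOX probes (rows, by cluster and paralogue number) in each of the 9 biological replicates (columns). Red is higher and blue lower with neomycin, and colours are limited at 0.8. HOXA4 is red in 9 of 9 replicates and HOXA13 is blue in all 3 replicates of 0 hr.

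In cluster A, HOXA4 had the highest mean ratio of any member. In the mouse Hoxa4 helps to set the identity of neck vertebrae. The HOXA4 log2 ratio was 0.56, 0.06 and 0.36 at 0 hr, 0.22, 0.07 and 0.75 at 24 hr, then 0.39, 0.08 and 0.25 at 48 hr, for replicates 1, 2 and 3. All 9 values were above 0, and the replicate numbered 2 had the lowest at every time point. Another HOX probe, HOXB8, was also above 0 in 9 of 9 replicates, so that 2 of 37 members were, beside 1.95% of all probes. The mean over time points of HOXA4 was 0.31 (SE 0.07, 95% interval 0.15 to 0.46, n = 9), a ratio of 1.24, with an adjusted p of 0.093 in the limma fit. By time point the means were 0.33 ± 0.25 (SD, n = 3) at 0 hr, 0.35 ± 0.35 at 24 hr and 0.24 ± 0.16 at 48 hr, with limma adjusted p of 0.74, 0.80 and 0.70.

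The call on HOXA4 changed under some settings. Treating every array as independent gave a limma adjusted p of 0.0023, but this counts arrays of the same replicate as separate values. Leaving out 0 hr replicate 2 gave 0.039. Over 32 settings of the processing the adjusted p ran from 0.0017 to 1.00 and was under 0.05 in 6. The 24 hr value rested on replicate 3, since without it the 24 hr mean was 0.15. The brightness of HOXA4, 772.3, was above the median of all gene probes, yet the probe lay only 2.04-fold over background in Cy3. At 0 hr it was at 0.03 on arrays with neomycin in Cy3 and at 0.63 on those with neomycin in Cy5.

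HOXA13, which in vertebrates patterns the distal limb and the genital tract, was low at 0 hr. Its log2 ratio was -0.29, -0.23 and -0.31 at 0 hr, -0.15, -0.06 and -0.02 at 24 hr, then 0.14, -0.02 and 0.07 at 48 hr. The 0 hr values did not overlap those of 24 or 48 hr. The share of all tested probes with a time point set apart in this way was not counted. The 0 hr mean was -0.28 ± 0.04 (SD, n = 3), with a limma adjusted p of 0.32, and the mean over time points was -0.10 (adjusted p = 0.34). The dye orientations disagreed, because at 0 hr HOXA13 was at 0.03 on arrays with neomycin in Cy3 and at -0.58 on those with neomycin in Cy5. It is among the 4 HOX genes that the study listed for the utricle after neomycin, a list chosen on these samples. The study listed HOXA13 as lower at 0 hr.

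Among the other low-numbered members of the cluster, HOXA3, needed in the mouse for thymus and parathyroid, was at 0.04, 0.06 and 0.01 at 0 hr, at -0.07, -0.09 and -0.47 at 24 hr, and at -0.13, -0.04 and -0.19 at 48 hr. All 3 replicates thus lay above 0 at 0 hr and below 0 at 24 and 48 hr, with no count of how many of all probes did so. The dye orientations disagreed, since at 24 hr HOXA3 was at -0.53 with neomycin in Cy3 and at 0.11 with neomycin in Cy5. Its 24 hr mean was -0.21 ± 0.22 (SD, n = 3; limma adjusted p = 0.80). HOXA6, the brightest member, was at 0.15, -0.16 and -0.05, then -0.02, 0.09 and -0.62, then -0.06, -0.12 and 0.10 over the 3 time points, on both sides of 0 at each. Its mean was -0.08 (SE 0.07, adjusted p = 0.70).

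HOXA11, which acts in limb and kidney in the mouse, had a mean of 0.15 and was above 0 in 7 of 9 replicates, with its highest value, 0.62, in 24 hr replicate 3. HOXA7 had a mean of 0.09, with 0.30 in 24 hr replicate 1 and -0.45 in 48 hr replicate 1. The remaining members (HOXA2, HOXA5, HOXA9 and HOXA10) had means between -0.05 and 0.09. Over the cluster the median was 0.03, 0.02 and -0.01 at 0, 24 and 48 hr.

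In cluster B, HOXB8, which in the mouse is needed for normal grooming, was at 0.12, 0.10 and 0.20 at 0 hr, at 0.03, 0.01 and 0.02 at 24 hr and at 0.26, 0.16 and 0.20 at 48 hr. The 24 hr values were below all others, again with no count of how many of all probes had a time point set apart. Its 48 hr mean was 0.21 ± 0.05 (SD, n = 3; limma adjusted p = 0.60), and its mean over time points was 0.12 (SE 0.04, 95% interval 0.04 to 0.20, adjusted p = 0.17). No alternative put HOXB8 past the threshold.

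HOXB9, which helps to pattern the ribs in the mouse and was the brightest probe of the cluster, had a mean of -0.06 (SE 0.07, adjusted p = 0.78) with values between -0.34 and 0.27. HOXB5, the dimmest, had a mean of -0.00 (SE 0.04, adjusted p = 0.99). HOXB7 is also on the study's list, with its unlike limits, as higher at 48 hr. It was at 0.21, -0.16 and 0.24 at 0 hr, at 0.01, 0.18 and 0.13 at 24 hr, and at 0.06, -0.07 and 0.28 at 48 hr. It was above 0 in 7 of 9 replicates with a mean of 0.10 (SE 0.05, adjusted p = 0.50). Its 48 hr mean was 0.09 (SE 0.09, limma adjusted p = 0.88). HOXB1 and HOXB2, hindbrain segment genes, had means of 0.08 and 0.09, HOXB2 being at 0.19 ± 0.16 at 24 hr (adjusted p = 0.82) and HOXB1 at 0.15 ± 0.15 at 48 hr (adjusted p = 0.71). HOXB3, HOXB6 and HOXB13 had means between -0.04 and 0.01.

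The 6 tested members of cluster C all had a mean above 0, from 0.01 at HOXC10 to 0.15 at HOXC8, beside 49.3% of all probes. The cluster median was 0.08, 0.06 and 0.11 at 0, 24 and 48 hr. HOXC8, which specifies motor neurons of the forelimb level in mouse and chick, was at 0.15, 0.20 and 0.15 at 0 hr, at 0.18, -0.05 and 0.22 at 24 hr and at 0.55, 0.02 and -0.08 at 48 hr. Its mean was 0.15 (SE 0.06, adjusted p = 0.34), and 48 hr replicate 1 stood far above the rest. HOXC5, the brightest member, had a mean of 0.10 (SE 0.05, adjusted p = 0.39) and was above 0 in 8 of 9 replicates.

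HOXC4 was at 0.17 ± 0.12 at 48 hr (limma adjusted p = 0.72) and above 0 in 8 of 9 replicates, the exception being -0.30 in 0 hr replicate 2. HOXC13, a hair and nail gene in mammals, was above 0 in 8 of 9 replicates but by no more than 0.14. HOXC6 had a mean of 0.06. The untested HOXC9, HOXC11 and HOXC12 had means of -0.10, -0.06 and 0.04, so the positive sign did not extend to all 9 probes of the cluster. HOXC9 and HOXC10 lay in row 24 of the printed subgrids, HOXC11 in row 29 and the other members in row 8. The part of the slide position in the sign of the cluster was not tested.

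In cluster D, HOXD8 had the highest ratio and was, after HOXA6, the brightest HOX probe. In the mouse it acts with its paralogues in patterning the trunk skeleton. Its log2 ratio was 0.46, -0.08 and 0.66 at 0 hr, 0.24, 0.15 and 0.32 at 24 hr, then -0.03, 0.23 and 0.31 at 48 hr. It was above 0 in 7 of 9 replicates, with the widest spread at 0 hr. The mean over time points was 0.25 (SE 0.07, 95% interval 0.10 to 0.40, n = 9), a ratio of 1.19, with a limma adjusted p of 0.12. By time point the means were 0.35 ± 0.38, 0.24 ± 0.08 and 0.17 ± 0.18 (SD, n = 3), with adjusted p of 0.58, 0.82 and 0.81. The 24 hr mean averages -0.17 with neomycin in Cy3 and 0.64 with neomycin in Cy5. Leaving out 0 hr replicate 2 gave a limma adjusted p of 0.017 for the mean over time points. Treating the arrays as independent gave 0.045, but this counts arrays of the same replicate as separate values. Over 33 settings of the processing the adjusted p of that mean was under 0.05 in 4. HOXD8 is on the study's list as higher at 0 hr, and HOXD12 as higher at 48 hr.

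HOXD12, a gene of the distal limb, was at 0.38, 0.01 and 0.12 at 0 hr, at 0.18, -0.08 and 0.19 at 24 hr and at 0.28, -0.12 and 0.24 at 48 hr. It was above 0 in 7 of 9 replicates with a mean of 0.13 (SE 0.06, adjusted p = 0.35), and the lowest value of each time point was that of the replicate numbered 2. Its 48 hr mean was 0.13 (SE 0.10, limma adjusted p = 0.82). HOXD4 was above 0 in 8 of 9 replicates with a mean of 0.13 (SE 0.06), of which 0.49 in 48 hr replicate 1 was the highest. HOXD10, which helps to specify lumbar motor neurons in the mouse, was at 0.03, 0.11 and 0.09 at 0 hr, at -0.07, -0.28 and -0.13 at 24 hr, and at 0.02, 0.08 and -0.02 at 48 hr. The 24 hr values were thus all below 0 and below those of the other times (24 hr mean -0.16 ± 0.11, adjusted p = 0.80). How many of all probes had a time point set apart was not counted.

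HOXD11, the dimmest member of the cluster, had a mean of 0.05 (SE 0.05, adjusted p = 0.74). HOXD3 was below 0 in 8 of 9 replicates with a mean of -0.08. HOXD1, HOXD9 and HOXD13 had means of 0.00, -0.03 and 0.08. The cluster median was 0.06, 0.09 and 0.00 at 0, 24 and 48 hr. HOX11 and HOX11L, which belong to no cluster, had means of -0.07 and 0.05, with no p under 0.05 before adjustment at any time point.

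**Figure D3:**
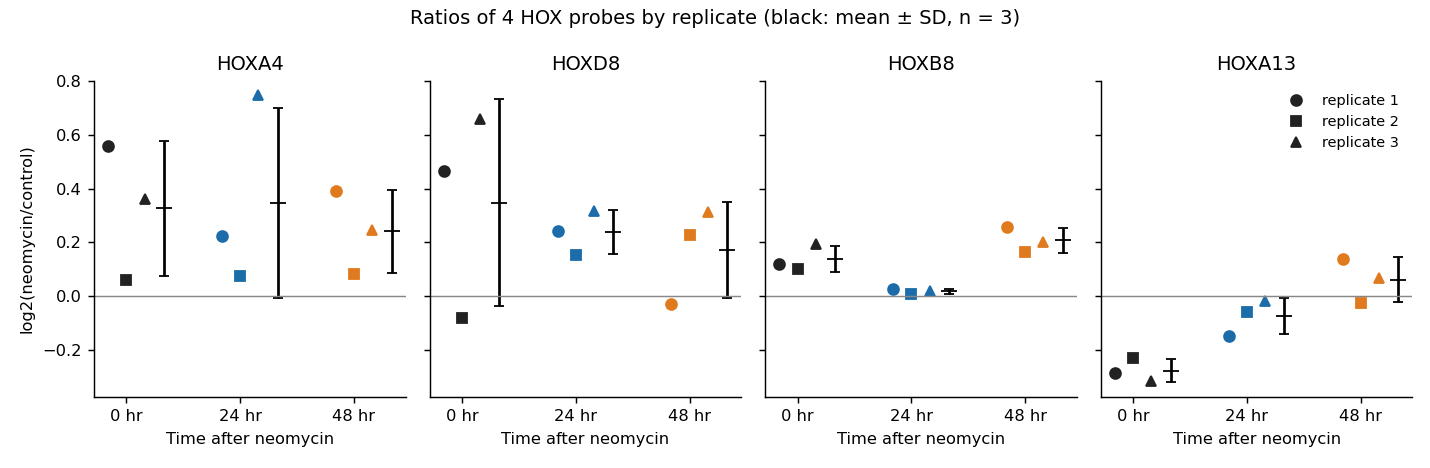
Log2 ratio of neomycin over control for HOXA4, HOXD8, HOXB8 and HOXA13 at 0, 24 and 48 hr, 1 symbol per biological replicate, with the mean ± SD (n = 3) in black beside them. HOXA4 and HOXB8 lie above 0 in 9 of 9 replicates, and HOXA13 goes from between -0.31 and -0.23 at 0 hr to between -0.02 and 0.14 at 48 hr.

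Arranged by paralogue number, groups 4 and 8 had the means of all members above 0 at all 3 time points, as had HOXD12, the 1 tested member of group 12. In the mean over time points every tested member of groups 2, 7 and 11 was above 0 too, between 0.05 and 0.15. In group 4 the means over time points were 0.31 for HOXA4, 0.09 for HOXC4 and 0.13 for HOXD4. In group 8 they were 0.12 for HOXB8, 0.15 for HOXC8 and 0.25 for HOXD8, and each of these 3 had an unadjusted p under 0.05, beside 12.2% of all probes. Group 3 was below 0 in the mean over time points, with HOXA3 at -0.10, HOXB3 at -0.04 and HOXD3 at -0.08. At 0 hr HOXA3 was above 0. Group 9 was below 0 in that mean by less than its standard errors, with HOXA9 at -0.02, HOXB9 at -0.06 and HOXD9 at -0.03, but all 3 were above 0 at 0 hr and 1 of 3 at 24 hr.

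Groups 3, 4, 8 and 9 hold 3 tested probes each. Those of groups 4 and 8 all lay in rows 7 and 8 of the printed subgrids, where other probes were also mostly above 0 (given below). In group 3 HOXA3 and HOXB3 lay in row 7 and HOXD3 in row 24. In group 9 HOXA9 lay in row 8, HOXB9 in row 30 and HOXD9 in row 25. The part of the slide position in the signs of the groups was not tested. By position along the clusters, the median of the mean ratio was 0.08 over groups 1 to 4, 0.09 over groups 5 to 8 and 0.01 over groups 9 to 13. The neighbours of HOXA4, HOXA3 and HOXA5, were at -0.10 and -0.05. The neighbours of HOXB8 were HOXB7 at 0.10 and HOXB9 at -0.06, and HOXD8 lay between HOXD4 at 0.13 and HOXD9 at -0.03. Paralogue probes could share labelled transcripts where their coding sequences are alike, and this was not tested.

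**Figure D4:**
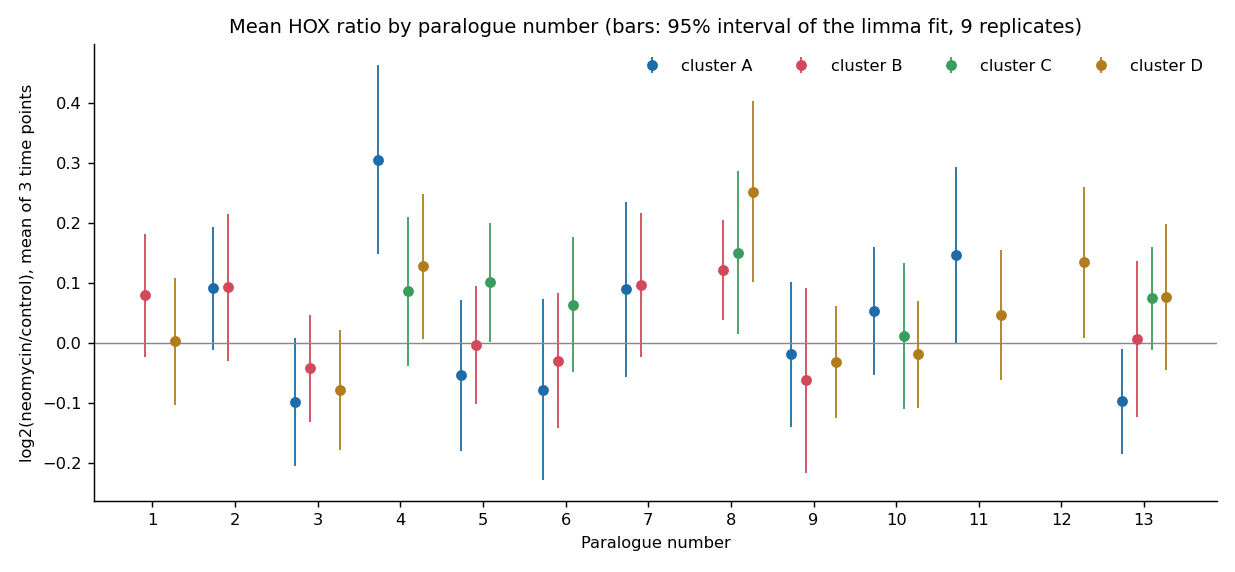
Mean over time points of the log2 ratio of neomycin over control (vertical axis) for 34 of the 35 tested cluster genes by paralogue number, coloured by cluster, with 95% intervals of the limma fit. The points of groups 4 and 8 lie above 0 and those of groups 3 and 9 below, and 8 intervals exclude 0 before any adjustment for multiple tests.

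Whether the response differed between time points was tested directly. None of the 37 members passed for 24 minus 0 hr, 48 minus 24 hr or 48 minus 0 hr, beside 0% of all probes in each (limma), and before adjustment 1 (HOXD10), 0 and 1 (HOXA13) of 37 had a p under 0.05, beside 2.58%, 3.59% and 2.73% of all probes. The largest was HOXA13, whose ratio was 0.34 higher at 48 hr than at 0 hr (SE 0.10, adjusted p = 1.00). For 24 minus 0 hr HOXD10 differed by -0.23 (SE 0.10) and HOXA3 by -0.25 (SE 0.12), both with an adjusted p of 1.00. HOXB8 was 0.19 higher at 48 than at 24 hr (SE 0.09) and HOXB2 0.20 higher at 24 than at 0 hr (SE 0.14), both also with an adjusted p of 1.00. The F test asked another question, whether the ratios of all 3 time points are 0, and is no test between them. It called 0 members, beside 0% of all probes, and before adjustment it gave 4 (HOXA4, HOXA13, HOXB8 and HOXD8) beside 7.34%.

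Time points were mostly imaged on different days, so day and time point cannot be fully told apart. On 2 days with arrays of both 0 and 24 hr (replicate 3, 6 arrays each), 24 minus 0 hr was 0.40 for HOXA13, -0.23 for HOXD10 and -0.56 for HOXA3, with no replicate to give an error. On 2 days with both 24 and 48 hr (replicate 2, 8 arrays each), HOXB8 was 0.16 higher at 48 hr. The median difference over the tested members was -0.04 for 24 minus 0 hr and 0.01 for 48 minus 24 hr on those days.

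The dye orientations often disagreed. Averaged over time, 23 of 37 members had opposite signs on arrays with neomycin in Cy3 and on those with neomycin in Cy5, beside 57.1% of all probes. HOXA4 kept its sign, at 0.17 with neomycin in Cy3 and 0.44 with neomycin in Cy5, as did HOXD8 (0.14 and 0.36), HOXB8 (0.18 and 0.06) and HOXC8 (0.28 and 0.02). HOXA13 did not (0.11 and -0.30), nor did HOXB7 (0.24 and -0.05), HOXA3 (-0.26 and 0.07) or HOXA6 (-0.23 and 0.08). HOXD12 was at 0.17 and 0.10. At 0, 24 and 48 hr HOXA4 was at 0.03, 0.28 and 0.21 with neomycin in Cy3 and at 0.63, 0.42 and 0.28 with neomycin in Cy5. Its 0 hr mean thus came mostly from arrays with neomycin in Cy5. At 24 hr HOXD8 was at -0.17 with neomycin in Cy3 and 0.64 with neomycin in Cy5. At 48 hr the median over tested members was 0.20 with neomycin in Cy3 alone and -0.06 with neomycin in Cy5 alone.

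HOX probes also shared a place on the slide. Of the 40 probes, 27 lay in rows 7 and 8 of the printed subgrids, and 26 of these were tested. Their median in the mean over time points was 0.08, with 20 of 26 above 0. The 11 tested HOX probes of other rows had a median of -0.03, with 3 of 11 above 0. The 65 tested probes of rows 7 and 8 that are no HOX gene had a median of 0.04, with 45 of 65 above 0, beside 49.3% of all probes. The part of the slide position in the HOX median was not tested.

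**Figure D5:**
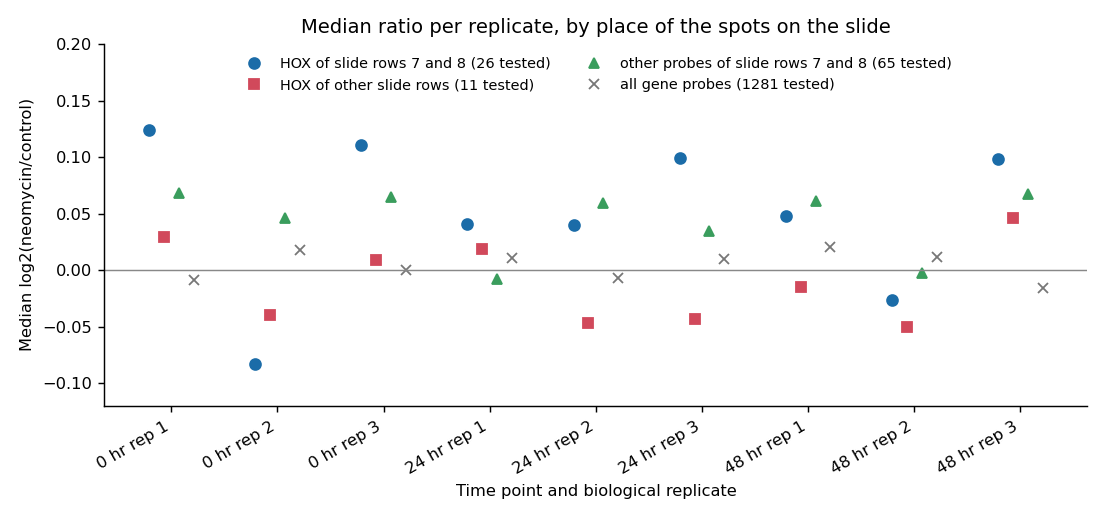
Median log2 ratio of neomycin over control in each of the 9 biological replicates for HOX probes in slide rows 7 and 8, HOX probes in other rows, the other probes of rows 7 and 8 and all tested gene probes. HOX probes of rows 7 and 8 were above 0 in 7 of 9 replicates, as were the other probes of these rows, while HOX probes of other rows were above 0 in 4.

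Brightness of a probe was also compared between time points, over both dyes and so over neomycin and control RNA together. None of the 40 HOX probes was called, beside 0% of all gene probes in each contrast (limma). This fit leaves out the replicate number, although same-numbered replicates were alike in brightness (given below). The standard errors and unadjusted counts here are from this fit. With the number as a block there were no calls either. Before adjustment, 1 of 40 had a p under 0.05 for 24 minus 0 hr (0.332% of all probes), 4 for 48 minus 24 hr (1.66%) and 3 for 48 minus 0 hr (2.26%), all lower at the later time. HOXC13 had the smallest p. Its normalised log2 brightness was 9.0, 9.1 and 9.2 at 0 hr, 8.6, 8.2 and 8.5 at 24 hr, then 8.3, 8.2 and 8.0 at 48 hr. The 0 hr values were above all later ones, and the difference of 48 minus 0 hr was -0.90 (SE 0.20, adjusted p = 1.00). The share of all probes whose brightness was set apart at a time point was not counted.

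HOXA13 was at 10.20, 10.67 and 10.13 at 0 hr, at 10.52, 9.17 and 11.05 at 24 hr and at 9.62, 8.96 and 8.89 at 48 hr, a difference of -1.18 from 0 to 48 hr (SE 0.45). On the same contrast HOXC8 differed by -0.66 (SE 0.27), and from 24 to 48 hr HOXD1 differed by -0.68 (SE 0.24) and HOXD4 by -0.89 (SE 0.39), all with an adjusted p of 1.00. Brightness of HOXA6 spanned 10.09 to 13.28 within 0 hr alone. Arrays of the same image day were alike in brightness, with a correlation of 0.54 within days. Nearly every image day held arrays of a single replicate number, so day and replicate cannot be told apart. Within shared days HOXC13 differed by -1.02 for 24 minus 0 hr in replicate 3 and by -0.03 for 48 minus 24 hr in replicate 2.

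HOX proteins bind DNA with cofactors of the PBX, MEIS and PKNOX families. Of these 9 were on the array and 8 tested, and none was called. Above 0 in the mean over time points were 4 of 8, with a median of 0.00 on the log2 ratio scale. MEIS1 passed 1.2-fold at 24 hr with 0.27 (SE 0.09, limma adjusted p = 0.80), and no cofactor did so at 0 hr, at 48 hr or in the mean, where MEIS2 had the highest value, 0.19 (adjusted p = 0.093). Regulators of HOX genes on the array were CDX, retinoid receptor, hindbrain segment and Polycomb or trithorax genes, 21 in all with 16 tested. None was called or past 1.2-fold with a p under 0.05 at any time point, and their median in the mean over time points was -0.04, with 7 of 16 above 0.

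Markers of the cell types that an epithelium could hold were read beside the HOX values. Hair cell markers were 4 on the array, with 2 tested. In the mean over time points ATOH1 was at -0.02 and BARHL1 at 0.02, while POU4F3 and GFI1 were too dim to test. None of the 4 was scored as detected at any time point. Neither these ratios nor the summed intensity can thus measure the loss of hair cells. The summed intensity of the 4 hair cell markers ran from 1149 to 2059 in control and from 1144 to 2117 in neomycin channels. Of 10 supporting cell markers 7 were tested and 0 called, and SOX2 was the one scored as detected at some time point. Their summed intensity ran from 3842 to 10452 in control and from 3742 to 11403 in neomycin channels. Of 5 stroma markers 4 were tested, and TBX15 was called with a mean of 0.31 (SE 0.06, limma adjusted p = 0.045). TBX15 was at 0.60, 0.07 and 0.55 at 0 hr, where HOXA4 was at 0.56, 0.06 and 0.36 and HOXD8 at 0.46, -0.08 and 0.66, all 3 being lowest in replicate 2. Over all tested probes 0 hr replicate 2 also stood apart, at -0.09 with replicate 1 and -0.17 with replicate 3, so this is not particular to these 3. At 24 hr TBX15 was at 0.28, 0.22 and 0.35 and at 48 hr at 0.23, 0.28 and 0.20, so that at 48 hr it was highest in replicate 2, where HOXA4 was lowest. The other tested stroma markers were at -0.04 (TBX18), -0.01 (PMX1) and 0.10 (FOXC1) in the mean over time points, and their replicate values are not given here. The study also lists TBX15 as changed in laser-wounded utricle cultures, which it describes as nearly all sensory epithelium. The summed intensity of the 5 stroma markers ran from 1789 to 6677 in control and from 1787 to 7899 in neomycin channels. The replicate numbered 3 had the highest sums at every time point, from 4395 to 6677 in control and from 4178 to 7899 in neomycin channels, against 1787 to 2774 in the other two over both channels, and the part of stroma in the HOX values was not tested.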

How the data were processed

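Per the file headers, ImaGene 4.1 wrote the 130 deposited tables, 1 for each dye of each array, which give the mean foreground and background intensity of every spot with no normalization. The deposited series matrix holds log2 ratios of the foreground intensity, neither background-corrected nor centred, and was used only as an alternative. Per the study's methods, probes were 50-mers on human coding sequence, spotted in duplicate. Values that the authors normalized for their own gene lists were not used here.

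Groups and replicate numbers came from the labels. Image names in the headers put neomycin in Cy3 on arrays whose title carries a 3 and in Cy5 on those with a 5, and ratios were turned to neomycin over control accordingly. In limma 3.58.1 (R 4.3.3), intensities were corrected by normexp (offset 50) and normalized by global loess. Marked spots (8 on 2 arrays) were left out. Duplicate spots, arrays of each orientation and then both orientations were averaged, giving 1 value per replicate. The labels do not tie replicates to cultures, so p-values measure the spread between these pooled samples. The dimmest 15% of gene probes were removed (brightness under 499.3), which left 1281 of 1507. The 9 values were fitted with 1 coefficient per time point (lmFit, eBayes, two-sided, Benjamini-Hochberg over 1281 probes, threshold 0.05). Brightness was quantile normalized and fitted the same way over 1507 probes. The fit was tested on simulated data, but the outcome is not given here and no result rests on it. Alternatives changed the background correction, the normalization, the filter, the arrays used, the model and the source table, or left out 1 replicate. Intervals are at 95%, and the number of pooled replicates, 3 at each time point, limits the precision.

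Replicate numbers did not pair the ratios: across time points, deviations of same-numbered replicates correlated between -0.11 and 0.19, with 2 of 9 pairs over 0.1. In brightness they did, with correlations between 0.32 and 0.74 and 9 of 9 pairs over 0.1, and differently numbered replicates were between -0.53 and 0.02. Full statistics are given for the 5 HOX probes with the smallest p in each comparison, for HOXA13, HOXB7, HOXD8 and HOXD12, and for the brightest and the dimmest probe of each cluster. A single member enters the counts and medians but is not reported here. The members, the lists and the tests were chosen with earlier results of these data known. A symbol search in a chicken RefSeq table (GRCg7b) found 34 of the 38 cluster genes. No probe or protein sequence was used here.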

Additional observations from a re-analysis of the deposited data

Results flagged for a closer look

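For 2 HOX genes every replicate of one time point lay on the other side of 0 from every replicate of another. The share of all tested probes that did so was not counted, so this number has no background beside it. HOXA3 was above 0 in 3 of 3 replicates at 0 hr and below 0 in 3 of 3 at 24 hr and at 48 hr. The difference was -0.25 for 24 minus 0 hr (SE 0.12) and -0.16 for 48 minus 0 hr (SE 0.12), each with a limma adjusted p of 1.00. HOXD10 was above 0 in 3 of 3 replicates at 0 hr and below 0 in 3 of 3 at 24 hr, with a difference of -0.23 (SE 0.10, limma adjusted p = 1.00). None of these differences passed the test. With 3 replicates at each time point, single replicates were not tested for lying apart.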

How the results depend on the processing

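The share of all probes under each alternative is not given here, so the counts of this section are not read as results about HOX probes. No HOX probe was called at 0, 24 or 48 hr under any alternative. In the mean over time points, where 0 were called, treating all arrays as independent, the biological replicate as a random block and the image day as a random block (chosen after seeing the data) each called 2, HOXA4 and HOXD8. The methods' t-test over hybridisations called 1 (HOXA4), and leaving out each replicate in turn gave 0 to 2. The first 3 of these also called 1, HOXA4, by the F test that all 3 ratios are 0. The correlation within blocks was 0.0015 for the biological replicate and -0.0089 for the image day. Both block fits were thus nearly the fit with independent arrays, which counts arrays of 1 replicate as separate values. The 3 fits are not separate support for a call. Replicate numbers do not pair the ratios, and the fit with the replicate number as a block called 1 in the mean (HOXA4, adjusted p = 0.037) and 0 at each time point and in the differences between them.

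Past 1.2-fold at 0 hr (3 probes) were 1 without background correction, with median centring, with either form of the methods' t-test and with the centred series matrix, and 0 with plain subtraction and the series matrix as deposited. At 24 hr (1 probe) the count was 4 with plain subtraction, 2 with print-tip loess, 3 with either dye orientation alone, and 0 with scale normalization, with probes of brightness 800 or more, with the methods' t-test on replicates and with the series matrix. At 48 hr (0 probes) it was 6 with plain subtraction, 5 with neomycin in Cy3 alone, 2 with neomycin in Cy5 alone and 1 after shifting the spot grid of 1 misplaced array (chosen after seeing the data). Leaving out a replicate gave 0 to 3 at 0 hr, 0 to 3 at 24 hr and 0 to 1 at 48 hr. The values that left out 0 hr replicate 3 and 24 hr replicate 3 were 0.

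The HOX median was 0.13 at 0 hr with plain subtraction and 0.080 at 24 hr with median centring. With neomycin in Cy3 alone it was 0.20 at 48 hr and 0.11 in the mean, and with neomycin in Cy5 alone -0.057 at 48 hr. Leaving out a replicate gave 0.015 to 0.061 at 0 hr, 0.029 to 0.064 at 24 hr, 0.018 to 0.075 at 48 hr and 0.027 to 0.062 in the mean. Detected at 0 hr were 0 when 80% of arrays were asked for, and at 48 hr 1, as with a threshold of 1200, while a threshold of 800 gave 2 at 24 hr. Leaving out a replicate gave 3 to 6 at 0 hr, 0 to 4 at 24 hr and 2 to 4 at 48 hr. The highest came without 0 hr replicate 2, 24 hr replicate 1 and 48 hr replicate 3. Calls on brightness between time points stayed at 0, with the replicate number as a block too.

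Turning the sign of every ratio, as if the header dyes were exchanged, gave medians of -0.041, -0.056, -0.047 and -0.052 at 0, 24 and 48 hr and in the mean. By construction it turned every named ratio. At 0 hr these became 0.28 for HOXA13, -0.35 for HOXD8, -0.33 for HOXA4, -0.14 for HOXB8 and -0.17 for HOXD12. At 24 hr they became -0.35 for HOXA4, 0.21 for HOXA3, 0.16 for HOXD10, -0.24 for HOXD8 and -0.19 for HOXB2. At 48 hr they became -0.21 for HOXB8, -0.24 for HOXA4, -0.15 for HOXC5 and HOXB1 and -0.17 for HOXC4. In the mean they became -0.31 for HOXA4, -0.25 for HOXD8, -0.12 for HOXB8, -0.15 for HOXC8, 0.096 for HOXA13, -0.096 for HOXB7, -0.13 for HOXD12, 0.077 for HOXA6, 0.061 for HOXB9, 0.0031 for HOXB5, -0.10 for HOXC5 and -0.047 for HOXD11. Between time points they became -0.34 for HOXA13, 0.23 for HOXD10, 0.25 for HOXA3, -0.19 for HOXB8 and -0.20 for HOXB2.

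Other sign changes were fewer. With neomycin in Cy3 alone HOXA13 was 0.026 at 0 hr and 0.11 in the mean, and HOXD8 was -0.17 at 24 hr. With neomycin in Cy5 alone HOXA3 was 0.11 at 24 hr, HOXC5 -0.18 and HOXB1 -0.27 at 48 hr, and in the mean HOXB7 was -0.048, HOXA6 0.076, HOXB9 0.033, HOXB5 0.086, HOXC5 -0.063 and HOXD11 -0.020. With plain subtraction HOXC5 was -0.44 at 48 hr, and in the mean HOXC8 was -0.011, HOXB5 0.088, HOXC5 -0.10 and HOXD11 -0.10. The mean of HOXB5, near 0, turned to 0.0059 without background correction, 0.039 with the series matrix and 0.032 with it centred. It also turned to 0.020 with scale normalization and 0.0026 with the grid shifted. Leaving out a replicate gave -0.027 to 0.024 for HOXB5. In all, 1024 of 1091 alternative values of named probes kept their sign and their side of the threshold, 10 passed it and 57 changed sign. Of these 57, 32 came from turning the sign of every ratio, which does so by construction. No named probe was called in the main fit, so none could lose a call, and changing the filter alone cannot change a sign. The tally is therefore no measure of robustness. Spots near 2 times background limit all of these ratios.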
